A study of Mus musculus with 36 samples.

Results

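The genes described here are the subunits of the proteasome whose mouse symbols begin with Psma, Psmb, Psmc or Psmd followed by a number. This rule on symbols found 39 of the 25239 genes in the table, 19 of the core (Psma and Psmb) and 20 of the regulatory particle (Psmc and Psmd). The rule itself uses no measured value, but it was chosen with earlier results of these data known. The RNA came from N2a cells, a mouse neuroblastoma line, 48 h after transfection, and the question was what active RfxCas13d, an RNA-guided ribonuclease, does to the transcriptome beside cutting its target. GFP-positive cells were sorted and mRNA libraries were sequenced from their total RNA. Levels are FPKM, the fragments counted for a gene scaled to its exon length and to the size of the library.

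There were 18 groups of 2 libraries. Cells received a plasmid for RfxCas13d or for dRfxCas13d, its catalytically dead form, and with each nuclease either a crRNA against a transcript, a non-targeting (NT) crRNA or no crRNA. The 7 targeting crRNAs were Sik3-S crRNA 1 and 8 (a short transcript of the kinase gene Sik3), Map2 crRNA 1 and 3 and Mapt crRNA 4 and 6 (microtubule-associated proteins of neurons) and Rbfox3 crRNA 5 (the neuronal splicing factor NeuN). For the last, the sample titles give the number 5 and the transfection labels of the same samples the number 6, and the number in the titles is used here. All 36 libraries come from cells that carry a nuclease plasmid, so none shows untransfected cells. The labels do not say that the 2 libraries of a group came from separate cultures, so each p-value speaks for the spread among the libraries at hand, which may be technical.

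The proteasome degrades proteins that carry ubiquitin. Its core is a barrel of alpha rings outside and beta rings inside, where the catalytic sites lie, and the regulatory particle caps it: a base of ATPases unfolds the substrate and a lid removes its ubiquitin. In mammals the genes are known to rise together through the transcription factor encoded by Nfe2l1 when proteasomal degradation is blocked.

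The libraries held an estimated 10270000 to 16350000 fragments with RfxCas13d (median 13270000) and 8620000 to 12120000 with dRfxCas13d (median 10255000). The targets fell where they could be measured: Sik3 was at 1.46 to 2.00 FPKM in the 4 RfxCas13d libraries with its crRNAs, against 15.9 to 17.1 FPKM with dRfxCas13d. Rbfox3 was at or below 0.113 FPKM in every library, so its knockdown could not be checked. A list of 15 neuronal markers summed to 1056 to 1308 FPKM in RfxCas13d libraries and to 1003 to 1087 FPKM in dRfxCas13d libraries. In RfxCas13d with NT crRNA, replicate 1, a list of liver genes summed to 565 FPKM, against at most 11.2 in any other library. Calls that use this library are also given without it. The groups were unequal in depth, and the part of depth in the results was not tested.

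All but a few of the genes were abundant. The 7 standard alpha subunits had medians over the 36 libraries of 16.98 to 223 FPKM, and the 7 standard beta subunits of 46.8 to 302 FPKM. The 6 ATPases of the base, Psmc1 to Psmc6, lay closer together, at 100.6 to 188 FPKM. The 8 lid genes lay at 46.6 to 156 FPKM. The 3 immunoproteasome genes, which interferon induces in place of the standard catalytic subunits, were lower, at 2.92 to 20.6 FPKM. Psma8, the alpha subunit of the testis, and Psmb11, the beta subunit of the thymus, never passed 0.1 and 0.14 FPKM. These 2 genes did not reach 1 FPKM in at least 2 libraries and were not tested, which left 37 of the 39: 17 of the core and 20 of the regulatory particle. Of these, Psmd5, Psmd9 and Psmd10 carry the name but are chaperones that leave the base once it is assembled.

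Some levels are uncertain because the mouse genome holds near-identical copies. For 9 of the 37 genes (Psma3, Psma4, Psma5, Psmb3, Psmb5, Psmc1, Psmd2, Psmd11 and Psmd13) a transcript of another gene matched at least 300 bases at 95% identity or more, and counting may have split their reads. For Psmd13 the match is an overlap of 329 bases with Sirt3, and whether the counting used strand is not stated.

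The promoters of the genes were searched for 2 motifs, because the genes are known to share regulators. The letters TGACNNNGC are the core of the antioxidant response element that Nfe2l1 binds, and CCGGAAG is bound by ETS factors. RefSeq promoters (GRCm38.p6, 250 bases before to 50 after the start) matched 32 of the 39 genes, and both strands were searched. The first motif stood in 5 of the 32 promoters (2 core, 3 regulatory particle), against 14.0% of all 27025 promoters and 16.6% of those of tested genes. With an A added at its 3′ end, which is its longer form, it stood in 1 of them, Psmd12, against 3.4% of all promoters. CCGGAAG stood in 10 of 32, 1 core and 9 regulatory particle, against 9.9% of all promoters and 20.2% of those of tested genes. The first motif does not overlap the second in any of the stretches printed here. A match describes letters, not binding. The stretches around the first motif are shown for 2 catalytic subunits and 2 regulatory particle genes, and those around CCGGAAG for the lid genes Psmd11 and Psmd12, because the results below turn on them. Capitals mark the motif, which appears as its reverse complement in Psmc6, Psmd12 and Psmd11.
Psmb5 (chr14:54618019-54618057, minus strand): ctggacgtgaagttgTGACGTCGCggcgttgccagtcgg
Psmb6 (chr11:70525333-70525356, plus strand): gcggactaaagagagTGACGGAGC
Psmc6 (chr14:45329582-45329620, plus strand): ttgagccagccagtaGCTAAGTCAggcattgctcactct
Psmd12 (chr11:107479278-107479304, plus strand): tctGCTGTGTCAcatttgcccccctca
Psmd12, CCGGAAG (chr11:107479496-107479527, plus strand): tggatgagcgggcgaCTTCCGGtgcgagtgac
Psmd11, CCGGAAG (chr11:80428589-80428614, plus strand): aacgcgagggcgggtCTTCCGGgtgt

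With a targeting crRNA, most proteasome genes rose with RfxCas13d. In the mean of the 7 comparisons of RfxCas13d with dRfxCas13d under the same crRNA, 30 of the 37 genes were higher and 4 lower at an adjusted p under 0.05 (limma with Benjamini-Hochberg adjustment over the 13293 genes tested). Over all genes tested, 40.6% were higher and 38.1% lower in this comparison, so calls were common in both directions, while 88.2% of the calls on proteasome genes were higher. The median log2 fold change, taken on log2(FPKM + 1), was 0.42 over the core and 0.22 over the regulatory particle, against 0.01 over all genes tested. Of the core, 14 of 17 genes rose and 1 fell, and of the regulatory particle 16 of 20 rose and 3 fell. In levels scaled between libraries, as the test uses them, the 14 RfxCas13d libraries lay wholly above the 14 dRfxCas13d libraries for 15 genes, 7 of the core and 8 of the regulatory particle, against 12.5% of all genes. They lay wholly below for 0 genes, against 12.8% of all genes.

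**Figure D1:**
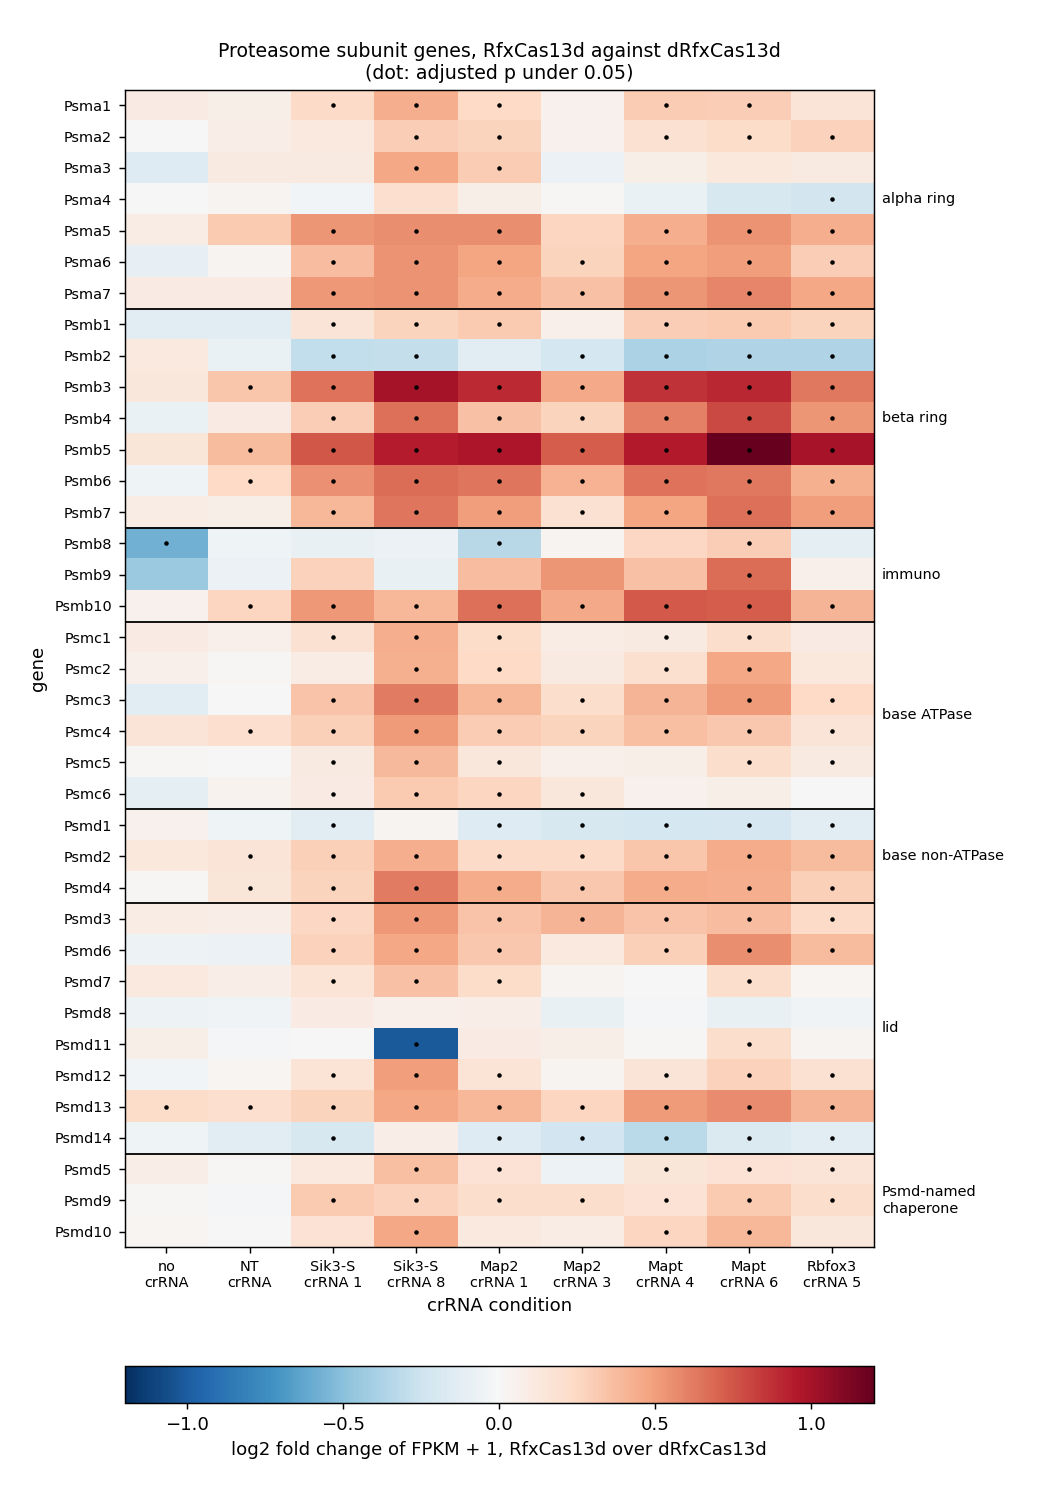
Log2 fold change of FPKM + 1, RfxCas13d over dRfxCas13d, for the 37 tested proteasome genes (rows, grouped by place in the complex) under each of the 9 crRNA conditions (columns); a dot marks an adjusted p under 0.05. Most rows turn positive once a targeting crRNA is present, while Psmb2, Psmd1 and Psmd14 stay negative in most columns and Psmd11 stands apart with Sik3-S crRNA 8.

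With each targeting crRNA alone, 16 to 30 of the 37 genes were higher and 2 to 4 lower. The count of higher genes was smallest with Map2 crRNA 3 (16 genes, against 23.2% of all genes) and largest with Mapt crRNA 6 (30 genes, against 27.5%). In between lay Rbfox3 crRNA 5 with 22 genes (26.4%), Sik3-S crRNA 1 with 24 (26.4%), Mapt crRNA 4 with 25 (27.9%), Map2 crRNA 1 with 28 (27.1%) and Sik3-S crRNA 8 with 29 (26.1%). Lower over all genes were 22.9% with Map2 crRNA 3, 26.6% with Mapt crRNA 6, 24.8% with Rbfox3 crRNA 5, 25.4% with Sik3-S crRNA 1, 26.8% with Mapt crRNA 4, 25.7% with Map2 crRNA 1 and 25.5% with Sik3-S crRNA 8. Called higher with every one of the 7 were 15 genes, against 13.1% of all genes: Psma6, Psma7, Psmb3, Psmb4, Psmb5, Psmb6, Psmb7 and Psmb10 of the core, and Psmc3, Psmc4, Psmd2, Psmd3, Psmd4, Psmd9 and Psmd13. With limma, 0 were called lower with every crRNA, against 12.9% of all genes, and at an unadjusted p under 0.05 there was 1, Psmb2. The 15 and 0 genes became 4 and 4 after quantile normalization, and 9 were higher when each comparison was fitted on its own libraries alone.

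Of the alpha ring, which gates the entry to the barrel, 6 of 7 genes rose and 0 fell, with a median log2 fold change of 0.24. Psma7 rose most: its lowest, median and highest levels were 150, 175 and 203 FPKM in RfxCas13d libraries with a targeting crRNA, against 109, 131 and 142 FPKM in dRfxCas13d libraries. The sets of libraries did not overlap, and the log2 fold change was 0.49 (SE 0.025, adjusted p = 1.57e-14). Psma6 ran at 238, 280 and 302 FPKM, against 194, 212 and 229 FPKM, again without overlap (0.42, SE 0.018, adjusted p = 1.28e-15). Psma5, which 2 near-identical copies match, ran at 21.3, 23.1 and 27.6 FPKM, against 14.7, 16.3 and 20.3 FPKM (0.47, SE 0.045). Psma1 overlapped between the groups, at 141 to 185 FPKM with RfxCas13d and 121 to 146 FPKM with dRfxCas13d, and rose by a smaller step (0.24, SE 0.025). Psma4 did not pass the test, at 86.2 to 112 FPKM against 92.7 to 125 FPKM (−0.03, SE 0.033, adjusted p = 0.361).

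The beta ring held both the steepest rises and the one clear fall of the core: 6 of its 7 standard genes rose and 1 fell, with a median log2 fold change of 0.50. Psmb5, which carries the chymotrypsin-like site (chr14:54614119-54618022, minus strand), rose most of all proteasome genes. Its lowest, median and highest levels were 65.5, 77.9 and 88.8 FPKM with RfxCas13d and a targeting crRNA, against 27.7, 42.6 and 51.0 FPKM with dRfxCas13d. Every RfxCas13d library thus lay above every dRfxCas13d library, with means of 76.9 ± 6.71 and 40.8 ± 6.78 FPKM (SD, n = 14 each). The log2 fold change was 0.93 (SE 0.033, adjusted p = 3.03e-17). A near-identical gene, Gm3375, matches it at 98.9%, so the level itself is uncertain. The other catalytic subunits rose by less. Psmb6, the caspase-like one, ran at 238, 274 and 302 FPKM, against 158, 186 and 202 FPKM, without overlap (0.57, SE 0.023, adjusted p = 2.51e-16). Psmb7, the trypsin-like one, ran at 303, 350 and 414 FPKM, against 206, 263 and 306 FPKM (0.48, SE 0.021, adjusted p = 1.88e-15). For Psmb7 the lowest RfxCas13d library lay just below the highest dRfxCas13d library.

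Among the beta subunits without a catalytic site, Psmb3 (chr11:97703399-97713500) rose most, with 171, 208 and 259 FPKM, against 93.7, 121 and 143 FPKM (0.77, SE 0.041, adjusted p = 3.77e-14). Psmb4 rose too, with 258, 289 and 366 FPKM, against 151, 230 and 264 FPKM (0.50, SE 0.034). Psmb1 rose by 0.24 (SE 0.021). Psmb2 (chr4:126677630-126709714) went the other way. It ran at 143, 158 and 173 FPKM with RfxCas13d, against 170, 196 and 217 FPKM with dRfxCas13d, and fell by 0.29 on the log2 scale (SE 0.021, adjusted p = 8.6e-12). The overlap was narrow, and the fall was called with 6 of the 7 crRNAs, the exception being Map2 crRNA 1 (−0.13, adjusted p = 0.058). Psmb2 therefore fell while the subunits beside it in the same ring rose.

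Of the immunoproteasome genes, Psmb10, which replaces Psmb7, behaved like the standard ring. It ran at 19.25, 23.2 and 26.6 FPKM, against 13.0, 15.3 and 19.0 FPKM, without overlap (0.56, SE 0.032, adjusted p = 1.5e-13). Psmb8, which replaces Psmb5 (chr17:34197721-34201454), gave no call, at 15.8, 18.9 and 23.1 FPKM against 14.1, 20.9 and 25.9 FPKM (log2 fold change −0.00, SE 0.040, adjusted p = 0.914). The crRNAs differed from each other. Psmb8 was lower with Map2 crRNA 1 (18.5 and 18.2 FPKM, against 22.7 and 25.9 FPKM, adjusted p = 0.0105) and higher with Mapt crRNA 6 (18.7 and 18.9 FPKM, against 14.1 and 16.3 FPKM, adjusted p = 0.0214). The RfxCas13d libraries of both crRNAs lay at 18.2 to 18.9 FPKM, and the dRfxCas13d libraries were the ones that differed. Psmb9, which replaces Psmb6 and was the lowest gene tested, ran at 2.34, 3.28 and 4.27 FPKM, against 1.09, 2.63 and 3.91 FPKM (0.31, SE 0.085, adjusted p = 0.0021). That call was lost once the dependence of the change on exon length was taken out (0.16, adjusted p = 0.0994).

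In the base of the regulatory particle all 6 ATPases, the ring that unfolds and threads the substrate, rose, with a median log2 fold change of 0.21. Psmc3 led, at 106, 118 and 147 FPKM, against 81.9, 94.3 and 102 FPKM (0.39, SE 0.023, adjusted p = 2.46e-13), and Psmc4 followed at 148, 162 and 194 FPKM, against 120, 134 and 141 FPKM (0.32, SE 0.020). The remaining ATPases moved by 0.13 (Psmc6, SE 0.014) to 0.24 (Psmc2, SE 0.022). The FPKM ranges of Psmc3 and Psmc4 did not overlap. Those of Psmc5 met at 179 FPKM and separated only after scaling between libraries.

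The other 3 genes of the base are its scaffolds and a ubiquitin receptor, and they split. Psmd4, the receptor, rose, at 171, 197 and 231 FPKM, against 144, 150 and 167 FPKM (0.41, SE 0.018, adjusted p = 2.46e-15). Psmd2, the scaffold that binds shuttle factors, rose as well, at 121, 133 and 152 FPKM, against 93.2, 109 and 121 FPKM (0.34, SE 0.020). Psmd1, the other scaffold, fell, at 87.3, 93.7 and 106 FPKM, against 101, 105 and 113 FPKM (−0.14, SE 0.015, adjusted p = 1.03e-08).

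Of the 8 lid genes 5 rose and 2 fell, with a median log2 fold change of 0.18. Psmd13 ran at 93.5, 102 and 117 FPKM, against 67.5, 81.0 and 90.1 FPKM (0.41, SE 0.022, adjusted p = 7.87e-14). Psmd3 ran at 123, 142 and 166 FPKM, against 106, 114 and 122 FPKM (0.35, SE 0.023, adjusted p = 1.71e-12), and Psmd6 at 88.6, 99.8 and 113 FPKM, against 66.7, 81.2 and 91.0 FPKM (0.34, SE 0.026). Psmd12 moved by less, at 142, 149 and 177 FPKM, against 125, 134 and 141 FPKM (0.21, SE 0.011, adjusted p = 1.62e-14). Its small SE rests on the spread within groups. Over the 14 RfxCas13d libraries, which had different crRNAs, its SD was 10.9 FPKM around a mean of 153 FPKM. Psmd14, the deubiquitinase that strips the chain off the substrate, fell, at 99.4, 107 and 125 FPKM, against 117, 124 and 133 FPKM (−0.16, SE 0.018, adjusted p = 2.17e-08). Psmd7, its inactive partner in the same dimer, rose by 0.14 (SE 0.016). Psmd8 gave no call (0.00, SE 0.020, adjusted p = 0.984). Psmd11, which braces the lid against the core, was called lower (−0.08, SE 0.026, adjusted p = 0.00564), but the sign came from 1 crRNA. Without Sik3-S crRNA 8, a mean chosen after the values were seen, Psmd11 was called higher (0.07, SE 0.028, adjusted p = 0.0251). The 3 assembly chaperones all rose: Psmd9 by 0.24 (SE 0.026), Psmd10 by 0.23 (SE 0.037) and Psmd5 by 0.15 (SE 0.023).

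**Figure D2:**
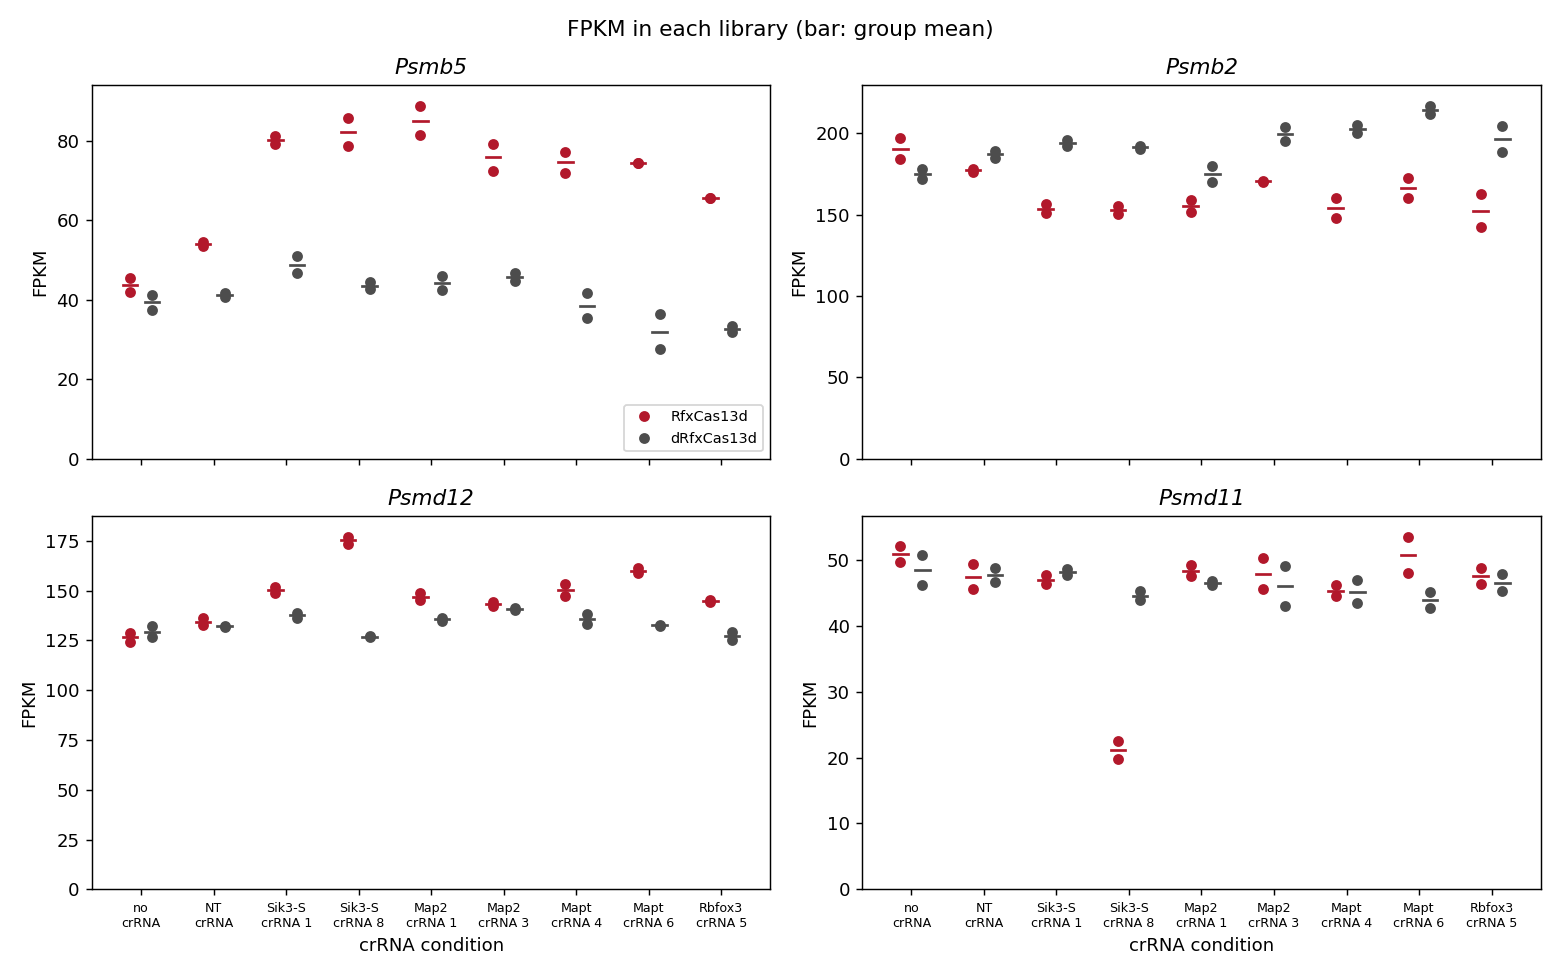
FPKM of Psmb5, Psmb2, Psmd12 and Psmd11 in each of the 36 libraries, by crRNA condition; each point is a library and each bar a group mean, with RfxCas13d left of dRfxCas13d. Psmb5 is higher and Psmb2 lower with RfxCas13d under every targeting crRNA, and with Sik3-S crRNA 8 Psmd12 reaches 177 and 173 FPKM while Psmd11 drops to 22.5 and 19.7 FPKM.

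The core and the regulatory particle were then compared within libraries. Each library got 1 value for the core and 1 for the regulatory particle, the median over the genes of the log2 level relative to the dRfxCas13d mean. In the 14 RfxCas13d libraries with a targeting crRNA the core value ran at 0.216, 0.402 and 0.497 (lowest, median and highest), against −0.165, −0.012 and 0.104 in the 14 dRfxCas13d libraries. The regulatory particle value ran at 0.0706, 0.202 and 0.398, against −0.0795, −0.0074 and 0.0599. Neither pair of ranges overlapped. The core lay above the regulatory particle in 14 of 14 RfxCas13d libraries, by 0.0459 to 0.282. Since levels are relative to the dRfxCas13d mean, the dRfxCas13d libraries lie around 0 by construction. Their core value minus their regulatory particle value ran from −0.100 to 0.0762, above 0 in 8 of 14. Replicates differed in this quantity with a pooled SD of 0.0417, so the smallest excess of the core was about the size of the replicate spread while the median excess of 0.15 was larger. By crRNA, the excess in the median fold change was small with Sik3-S crRNA 8 (0.46 for the core and 0.43 for the regulatory particle) and wide with Mapt crRNA 4 (0.43 and 0.17) and Mapt crRNA 6 (0.54 and 0.29).

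**Figure D3:**
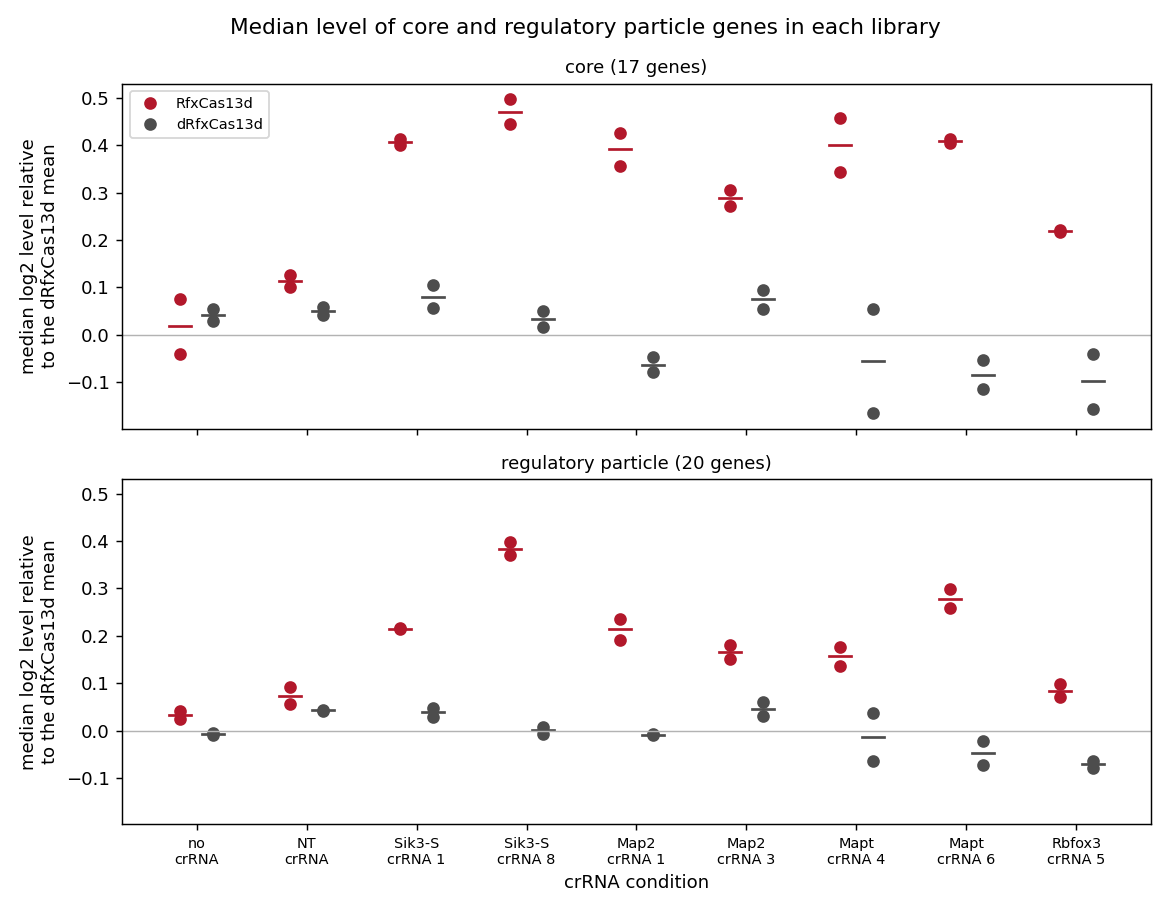
Median log2 level of the 17 core genes (upper panel) and the 20 regulatory particle genes (lower panel) in each library relative to the mean of the dRfxCas13d libraries; points are libraries and bars group means, with RfxCas13d left of dRfxCas13d. With targeting crRNAs the RfxCas13d points lie at 0.216 to 0.497 for the core and at 0.0706 to 0.398 for the regulatory particle.

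Transcript length moved with these changes. Core genes are short, with summed exons of 766, 1183 and 2911 bases (lowest, median and highest), and regulatory particle genes longer, at 1316, 1710.5 and 4397 bases. Across the 37 genes, which are not independent replicates, the log2 fold change of the mean comparison had a Spearman correlation with exon length of −0.49. Within the core it was −0.50 and within the regulatory particle −0.19. Short genes as a whole were higher with RfxCas13d. Among protein-coding genes under 1000 bases the median was 0.31, against 0.57 for the 5 proteasome genes of that size. At 1000 to 1500 bases the medians were 0.21 and 0.34 (13 proteasome genes, 11 of them above the first value). At 1500 to 2000 bases they were 0.15 and 0.20 (10 genes, 6 above), at 2000 to 3000 bases 0.07 and 0.18 (6 genes, 5 above) and at 3000 to 5000 bases −0.03 and 0.15 (3 genes, 2 above).

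With the length trend taken out of the fold changes of all genes, 27 proteasome genes were higher and 7 lower, against 42.5% of all genes higher and 34.7% lower. The core median was then 0.24 and that of the regulatory particle 0.12, so the distance between them narrowed to 0.12. After quantile normalization 21 genes were higher and 10 lower, with a core median of 0.21 and a regulatory particle median of 0.04, and the share of calls that were higher dropped to 67.7%, against 88.2% in the values above. Of the regulatory particle 10 genes were then higher and 8 lower, and over all genes 37.1% were higher and 41.0% lower. The core median thus stayed above 0.2 under each of these scalings, while the regulatory particle was close to even between higher and lower calls after quantile normalization.

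**Figure D4:**
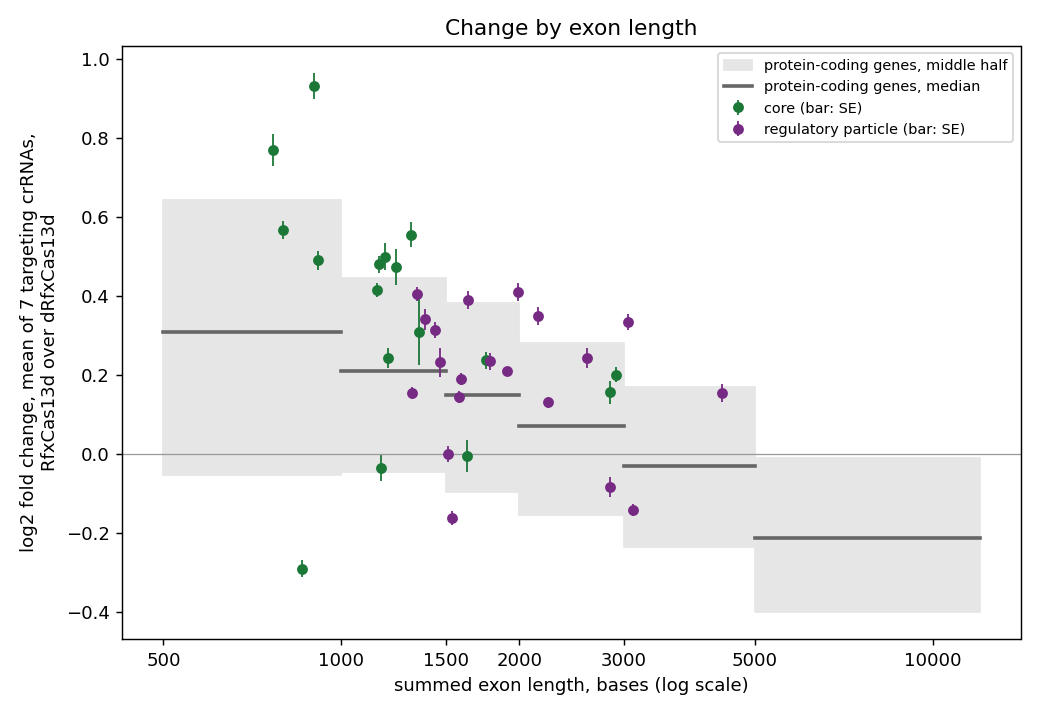
Log2 fold change, RfxCas13d over dRfxCas13d in the mean of the 7 targeting crRNAs, against summed exon length (log scale) for the 37 proteasome genes, with SE bars; grey lines and bands give the median and the middle 50% of protein-coding genes in each length bin. Most proteasome genes lie above the grey median of their bin, 4 of 5 under 1000 bases and 11 of 13 at 1000 to 1500 bases.

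Without a targeting crRNA the proteasome genes moved little. With NT crRNA 8 of 37 genes were higher (11.0% of all genes) and 0 lower (11.3%) by limma, and 2 were lower at an unadjusted p under 0.05. Psmb5 was again the first, at 54.6 and 53.6 FPKM with RfxCas13d, against 40.7 and 41.8 FPKM with dRfxCas13d (0.38, SE 0.087, adjusted p = 0.00283). Psmb6 was at 225 and 231 FPKM, against 193 and 191 FPKM (0.24, SE 0.060, adjusted p = 0.00515). Psmc4 changed by 0.21 (SE 0.054, adjusted p = 0.00771). It lost the call after quantile normalization (adjusted p = 0.073), with only the 4 libraries of the comparison (0.0553), without RfxCas13d with NT crRNA, replicate 2 (0.0778) and without dRfxCas13d with NT crRNA, replicate 1 (0.0647). The others were Psmb3, Psmb10, Psmd2, Psmd4 and Psmd13. Without the library that held liver transcripts 5 were higher (6.82% of all genes), and without replicate 2 of the same group 3 (6.95%). Leaving out dRfxCas13d with NT crRNA, replicate 1, left 3 (7.59%), and leaving out its replicate 2 left 4 (6.91%). The core and regulatory particle medians with NT crRNA were 0.08 and 0.01, and 0.08 and 0.03 without the library with liver transcripts.

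With the nucleases alone, 1 gene was higher (2.52% of all genes) and 1 lower (2.84%). The lower one was Psmb8, at 17.0 and 20.1 FPKM with RfxCas13d, against 27.2 and 28.9 FPKM with dRfxCas13d (−0.58, SE 0.106, adjusted p = 0.00176). It lost the call without RfxCas13d replicate 1 (adjusted p = 0.0538) and with only the 4 libraries of the comparison (0.183). The higher one was Psmd13, at 94.7 and 101 FPKM, against 81.6 and 86.8 FPKM (0.22, SE 0.059, adjusted p = 0.0336), and it lost the call whichever of the 4 libraries was left out, with only those libraries and with no filter on low values.

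The difference between targeting and NT crRNA was tested as an interaction, the mean log2 fold change with the 7 targeting crRNAs minus that with NT crRNA. It was above 0 for 20 genes (15.6% of all genes) and below 0 for 1 (15.0%), with medians of 0.33 for the core and 0.17 for the regulatory particle. Psmb7 (0.41), Psmc3 (0.39), Psma6 (0.38), Psmb1 (0.37) and Psmd12 (0.19) rose more with targeting crRNAs. Psmb2 fell by 0.21 more, a call lost without dRfxCas13d with NT crRNA, replicate 2 (adjusted p = 0.0549). Without the library with liver transcripts 17 were above 0 (10.9% of all genes) and 1 below (10.6%). After quantile normalization 8 were above 0 (11.8%) and 4 below (17.5%), the regulatory particle split evenly with 3 above and 3 below, and the medians were 0.13 for the core and 0.01 for the regulatory particle. Psmb1 lost its call there (0.13, adjusted p = 0.0596). All these differences share the 4 NT libraries. The same interaction between NT crRNA and no crRNA was called for 0 of 37 genes by limma, against 2.53% of all genes in either direction, and for 5 at an unadjusted p under 0.05 (4 above 0, 1 below). Without the library with liver transcripts it was again called for 0 by limma (1.12%), with the same counts at an unadjusted p under 0.05.

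The same contrast can be read within a nuclease. In RfxCas13d libraries alone, the mean of the 7 targeting crRNAs against NT crRNA gave 21 higher and 2 lower genes, against 20.7% and 20.3% of all genes. Without the library with liver transcripts there were 16 higher (13.1%) and 1 lower (12.7%). RfxCas13d with NT crRNA against RfxCas13d alone gave 6 higher (7.69%) and 0 lower (7.03%), with 0 lower at an unadjusted p under 0.05 as well. Among the 6 was Psmb5, with a log2 fold change of 0.31 (SE 0.087, adjusted p = 0.0205). Without the library with liver transcripts 1 was higher (3.77%) and Psmb5 lost the call (0.29, adjusted p = 0.117), and without replicate 2 of that group 1 was higher as well (4.26%; Psmb5 0.32, adjusted p = 0.0745).

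The dRfxCas13d libraries were not level with each other. By limma, dRfxCas13d with a targeting crRNA against dRfxCas13d with NT crRNA gave 0 called genes with Sik3-S crRNA 1 (0.0376% of all genes in either direction), Sik3-S crRNA 8 (3.46%) and Map2 crRNA 1 (0.685%). At an unadjusted p under 0.05 these crRNAs gave 4, 6 and 7 genes. With Map2 crRNA 3 there was 1 (2.92%), with Mapt crRNA 4 there were 1 higher and 6 lower (8.18%), with Mapt crRNA 6 there were 3 higher (11.1%) and 12 lower (11.2%), and with Rbfox3 crRNA 5 there were 0 higher (6.17%; 1 at an unadjusted p under 0.05) and 11 lower (7.71%). The core medians for the last 3 crRNAs were −0.14, −0.18 and −0.19, and the regulatory particle medians −0.08, −0.09 and −0.08. Psmb7 had the smallest p each time, lower by 0.26 (SE 0.057) with Mapt crRNA 4, by 0.42 (SE 0.057) with Mapt crRNA 6 and by 0.42 (SE 0.057) with Rbfox3 crRNA 5. Psmb4 was lower with the same crRNAs, by 0.39, 0.58 and 0.48. These comparisons share the 2 NT libraries, and without dRfxCas13d with NT crRNA, replicate 2, the 19 genes called in at least 1 of them became 12. With Mapt crRNA 6 and Rbfox3 crRNA 5 a part of the difference between the nucleases therefore lies on the dRfxCas13d side. The core values of their dRfxCas13d replicates were −0.1156 and −0.0539, and −0.1563 and −0.0405. Those with NT crRNA were 0.0421 and 0.0579. With Mapt crRNA 4 only replicate 2 was low, at −0.165, and replicate 1 lay at the NT level, at 0.0545. For Mapt crRNA 4 the lower values on the dRfxCas13d side thus rest on replicate 2.

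At a fold change of at least 2, 3 calls were made over the 9 crRNA conditions. Psmb5 with Mapt crRNA 6 was at 74.4 and 74.4 FPKM with RfxCas13d, against 27.7 and 36.3 FPKM with dRfxCas13d (1.21, SE 0.087, adjusted p = 2.13e-10), where 2.08% of all genes were that much higher. The RfxCas13d libraries lay below the median of 77.9 FPKM given above, and the dRfxCas13d libraries included the lowest of all. Psmb3 with Sik3-S crRNA 8 was at 259 and 244 FPKM, against 137 and 121 FPKM (1.00, SE 0.107, adjusted p = 7.75e-08; 1.87% of all genes), with a log2 fold change of 0.92 to 1.09 when a library was left out. The third call was the fall of Psmd11 with Sik3-S crRNA 8.

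With Sik3-S crRNA 8, Psmd11 stood apart from the other proteasome genes. Psmd11 (chr11:80428615-80473248, plus strand) was at 22.5 and 19.7 FPKM in RfxCas13d libraries with this crRNA, against 43.9 and 45.3 FPKM in dRfxCas13d libraries with it. Over the 34 other libraries it lay at 42.7 to 53.5 FPKM, so the pair stood alone. The log2 fold change was −1.01 (SE 0.068, adjusted p = 8.64e-11), where 1.0% of all genes fell that much. Leaving out a library moved it between −1.09 and −0.93, so a fold of 2 was not reached without RfxCas13d with this crRNA, replicate 2, nor without dRfxCas13d with it, replicate 2. With Sik3-S crRNA 1 its log2 fold change was 0.00 (adjusted p = 0.990). A copy of Psmd11, A730017L22Rik, matches it at 98.1% and lay at 0.217 to 1.32 FPKM over all libraries.

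The spacer of Sik3-S crRNA 8, the part of the crRNA that pairs with the target, was set against the transcripts. Shown are the spacer, its site in Sik3 (chr9:46202652-46202673, plus strand, exon 13 of 13, UTR) and the closest site in Psmd11 (chr11:80433986-80434007, plus strand, exon 2 of 2 of a transcript listed as non-coding). Capitals mark bases that pair with the spacer, and the sites are written as the transcript reads, so they run as the reverse complement of the spacer.
Sik3-S crRNA 8 spacer: gtcgctctgtgaatcaggcatc
Sik3 site: GATGCCTGATTCACAGAGCGAC
Psmd11 closest site: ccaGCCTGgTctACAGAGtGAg
The Sik3 site had 0 mismatches over the 22 bases and the Psmd11 site 8. Of 13018 genes compared, 6274 had a site with as few mismatches as Psmd11, and the fewest outside Sik3 was 4. The longest unbroken match in Psmd11 was 9 bases, and 2762 genes had one as long.

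While Psmd11 fell, 11 of the 19 other regulatory particle genes stood higher with this crRNA than with the others. The difference between Sik3-S crRNA 8 and the mean of the other 6 targeting crRNAs, a contrast chosen after the values were seen, was above 0 for 12 of 37 genes (1.24% of all genes) and below 0 for 1 (1.26%). Of the 12, 11 belong to the regulatory particle: Psmc1, Psmc3, Psmc4, Psmc5, Psmc6, Psmd1, Psmd4, Psmd5, Psmd7, Psmd12 and Psmd14, with differences of 0.21 to 0.34. The core gave 1, Psma3 (0.35), which has near-identical copies. Psmd12 had the largest of the 11 differences (0.34, adjusted p = 4.77e-07). It was at 177 and 173 FPKM in the RfxCas13d libraries with this crRNA, against 124 to 161 FPKM in the 34 other libraries. Psmc1 was at 224 and 229 FPKM, against 163 to 210 FPKM, and Psmd4 at 231 and 230 FPKM, against 144 to 209 FPKM. Psmd11 gave the call below 0 (−1.08, SE 0.074, adjusted p = 5.44e-09). The medians of the difference were 0.11 for the core and 0.22 for the regulatory particle.

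In levels scaled between libraries, both RfxCas13d libraries with Sik3-S crRNA 8 lay above the 34 others for 12 of 20 regulatory particle genes and 9 of 17 core genes, against 2.6% of all genes. They lay below the others for Psmd11 alone, against 2.78% of all genes. Of 52 tested genes of the wider pathway, from the lists described further on, 4 were above 0 in the contrast of this crRNA with the other 6 and 0 below by limma, against 1.24% and 1.26% of all genes. Adrm1, a ubiquitin receptor of the base, differed by 0.48 and was at 31.8 and 33.5 FPKM, against 15.3 to 29.2 FPKM in the others. Maff, a small Maf protein that pairs with the Nfe2l factors, differed by 0.46, with 35.6 and 35.2 FPKM, against 22.0 to 37.3 FPKM. Usp14, the deubiquitinase of the base, differed by 0.24, and Zfand5, which activates the proteasome, by 0.23.

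**Figure D5:**
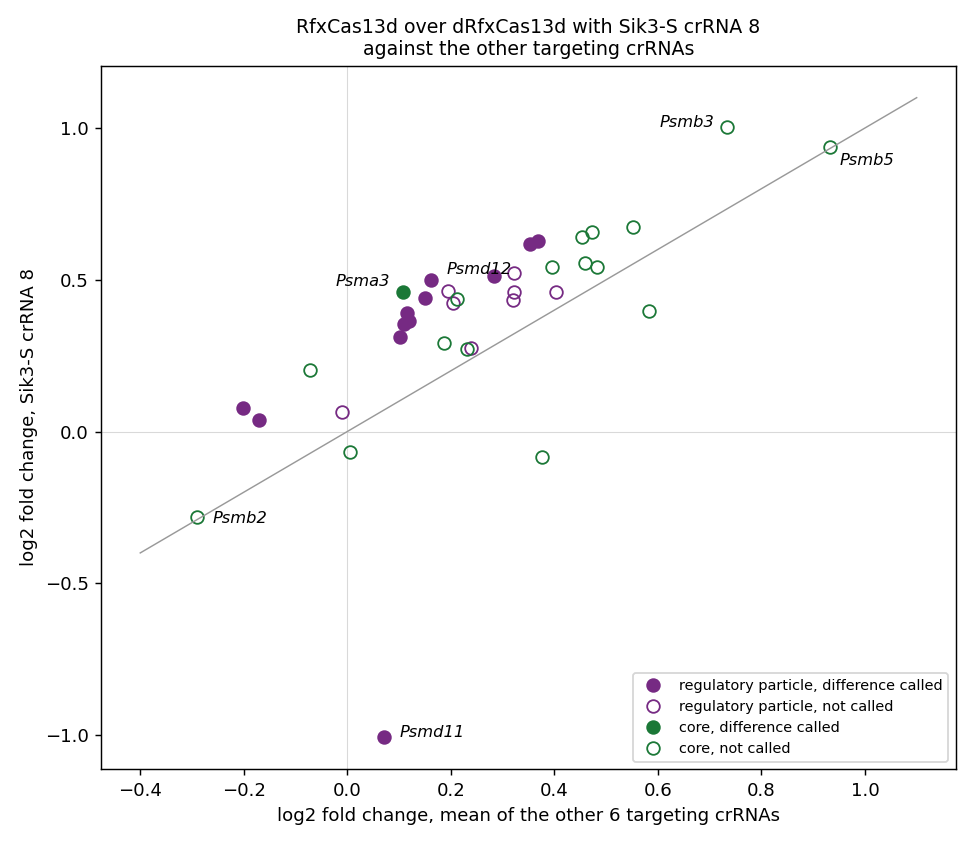
Log2 fold change, RfxCas13d over dRfxCas13d, with Sik3-S crRNA 8 (vertical axis) against the mean of the other 6 targeting crRNAs (horizontal axis) for the 37 proteasome genes; filled points differ at an adjusted p under 0.05 and the line marks equal values. The filled points are 11 regulatory particle genes and Psma3 above the line, and Psmd11 far below it.

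Genes that work with the proteasome did not all follow its subunits in the mean of the 7 targeting crRNAs, where the background of 40.6% higher and 38.1% lower applies. That background takes no account of exon length. The median log2 fold change of protein-coding genes was 0.31 under 1000 bases and −0.21 from 5000 bases up. The part of exon length in the differences among these lists was not tested. Both further subunits of the regulatory particle rose: Sem1, a small lid subunit, was at 253 ± 17.7 FPKM with RfxCas13d, against 166 ± 11.7 FPKM with dRfxCas13d (SD, n = 14 each; 0.63), and Adrm1 rose by 0.35. Of 6 genes, assembly chaperones and Akirin2, 3 rose and 2 fell. Pomp, which matures the core, rose to 166 ± 9.37 FPKM, against 116 ± 5.97 FPKM (0.54), Psmg3 by 0.59 and Psmg4 by 0.32. Of 6 genes for activators and the inhibitor 3 rose and 2 fell, among them Psmf1, the inhibitor (0.40), Psme2b (0.31) and Psme4, the nuclear activator (−0.35). The search for near-identical copies did not cover the genes of these lists, so split reads were not checked for them. Of 5 genes that bind the proteasome, deubiquitinases, ligases and Ecpas, 0 rose and 4 fell by limma. Ecpas, which ties the regulatory particle to the core, fell to 23.8 ± 1.18 FPKM, against 37.0 ± 1.32 FPKM (−0.60), Uchl5 by 0.40 and Ube3c by 0.14.

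Of 10 shuttle factors and segregase genes 4 rose and 5 fell, with a median of −0.01. Ubqln2 (0.26) and Ubqln4 (0.28) rose and Ubqln1 (−0.24) fell. Of 6 genes for ubiquitin and its activating enzymes 4 rose and 1 fell. Rps27a, which encodes ubiquitin fused to a ribosomal protein, was at 81.3 ± 7.9 FPKM, against 27.1 ± 3.87 FPKM (1.58). Ubb, the most abundant gene of this list, was level, at 719 ± 35.8 FPKM, against 719 ± 36.2 FPKM. The activating enzyme gene Uba6 was lower, at 13.3 ± 0.837 FPKM, against 18.5 ± 1.19 FPKM. Ubb and Uba6 were picked after the values were seen. Of the 7 genes for transcriptional regulators of the proteasome 4 rose and 1 fell, with a median of 0.18. The small Maf genes Mafg (0.33) and Mafk (0.29) rose, as did Keap1 (0.27), which holds Nfe2l2 back. Nfe2l1 itself gave no call (−0.03, SE 0.017, adjusted p = 0.137). Ngly1, the glycanase that activates its product, fell (−0.34, SE 0.057). Its levels were low and overlapped, at 1.07 to 2.32 FPKM with RfxCas13d, against 1.87 to 2.87 FPKM with dRfxCas13d. Nfe2l1 and Ngly1 were picked from their list after its values were seen. These libraries measure RNA only, so the activity of the 2 proteins and their part in the changes were not tested. Of 10 tested genes of antigen presentation and the interferon axis 7 rose and 3 fell, with Tapbp (0.44) and H2-K1 (0.38) among the higher ones. In bulk RNA, fewer cells that express a gene and less of its RNA per cell cannot be told apart.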

How the data were processed

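N2a cells in 18 groups of 2 libraries were measured by mRNA-seq. Per the submitters’ processing notes, Trim Galore, Subread (build mm10) and featureCounts were used before the authors deposited FPKM per gene. For versions, annotation, strand setting and filters the entry is: not given in the sources used here. No counts were used, so depth was estimated from the steps between low FPKM of 2372 single-exon genes (97.4 to 99.5% of values whole within 0.1 fragments), and a count model was not used.

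FPKM were scaled by median-of-ratios factors and tested as log2(FPKM + 1) in limma 3.58.1 (R 4.3.3, intensity trend, 36 libraries, 18 group means) for 13293 genes with at least 1 FPKM in at least 2 libraries. Fold changes on this scale understate low genes. Calls used an adjusted p under 0.05, and a second rule a fold of at least 2. With 2 libraries a group, the estimate of spread is shared by all groups. Members and lists were chosen with earlier results of these data known. Named genes were the catalytic and immunoproteasome subunits, in the mean comparison the 5 largest changes in each direction among the called core and regulatory particle genes, all 2-fold calls, the 3 smallest p per direction with NT crRNA, without crRNA and in the interactions, and the 3 smallest p of each other list. Some genes that this rule names are not reported here. Others are named to complete their subgroup. Exon lengths came from GENCODE vM21 (97.9% of symbols), and promoters from RefSeq. Alternatives were pseudocounts of 0.5 and 0.1, no filter, a mean FPKM of at least 5, FPKM as deposited, quantile normalization, a length trend removed (lowess span 0.3), a replicate block, only a comparison's libraries, and each library left out.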

Additional observations from a re-analysis of the deposited data

Results flagged for a closer look

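For 21 of the 37 proteasome genes the change with targeting crRNAs differed from that with NT crRNA by a test of the difference itself, against 30.6% of all genes. Among these, Psma6 (0.38), Psmb7 (0.41) and Psmb1 (0.37) changed more, and Psmb2 went the other way (−0.21). For 13 genes the change with Sik3-S crRNA 8 differed from the mean of the other 6 targeting crRNAs, against 2.5% of all genes, and the largest of these differences was that of Psmd11 (−1.08). The groups of 2 libraries are too small for a test for single outlying libraries.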

How the results depend on the processing

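In the mean of the 7 targeting crRNAs, leaving out any library kept 30 genes higher and 4 lower, a core median of 0.41 to 0.43, a regulatory particle median of 0.21 to 0.22 and a distance between them of 0.19 to 0.20. The ranges were 3 to 9 higher and 0 to 1 lower with NT crRNA, 0 to 1 higher and 0 to 1 lower without crRNA, 12 to 16 higher and 0 to 1 lower with each of the 7 crRNAs, 17 to 23 for the interaction of targeting with NT crRNA, 0 to 1 for that of NT with no crRNA, and 12 to 22 for the dRfxCas13d comparisons. Psmb8 turned in sign in the mean comparison (−0.030 to 0.021), never called. Quantile normalization gave 10 lower genes in the mean comparison, 4 higher and 2 lower with NT crRNA, 2 lower without crRNA, 4 higher and 4 lower with each of the 7, 12 with the targeting interaction, and medians of 0.21 (core) and 0.037 (regulatory particle). With the length trend removed, 7 genes were lower in the mean comparison, 2 with NT crRNA and 1 with each of the 7, the NT interaction gave 1, and the medians were 0.24 and 0.12 with a distance of 0.12; Psmb8 was then called lower (−0.13). These values held with the replicate block added. Only a comparison's libraries gave 3 higher with NT crRNA, 0 higher and 0 lower without crRNA and 9 higher with each of the 7; this fit was not run for the interactions or the dRfxCas13d comparisons. No filter gave 0 higher without crRNA, a core median of 0.31 and a distance of 0.089, since it adds Psma8 and Psmb11. A mean FPKM of at least 5 gave 1 lower with each of the 7 and 2 for the NT interaction, and FPKM as deposited 1 lower with each of the 7. Without Sik3-S crRNA 8, a mean chosen after the data were seen, the regulatory particle median was 0.18, Psmb8 turned to 0.0056 and Psmd11 to 0.071. Replicate numbers did not pair the libraries (correlation of replicate differences −0.125 to 0.112), and a replicate block gave 9 higher with NT crRNA and 22 for the targeting interaction, and kept the other counts. Where not named, the cause was not tested.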
